A study of Mus musculus with 8 samples.

Results

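Fibroblast growth factors (FGFs), their receptors and the Sprouty feedback inhibitors were examined in adipocyte precursors, mesenchymal cells of the dermis that can form fat cells. The 10 members, Fgf2, Fgf7, Fgf10, Fgf18, Fgfr1, Fgfr2, Fgfr3, Fgfrl1, Spry1 and Spry2, were taken by gene symbol from a deposited table of isoforms. They account for 10 of its 24356 gene symbols and for 22 of its 34535 isoforms. The cells came from C57/Bl6 male mice aged 7 weeks and were sorted by flow cytometry; the sort markers are not given in the sources used here. There were 6 samples labelled nonwounded, from dorsal skin, and 2 samples labelled as day 5 wound bed, and the labels name no other treatment or allele. The table holds 1 value per group and isoform, in FPKM (fragments normalised to transcript length and library size), so no spread between samples can be given, and sequencing depth is unknown. Whether samples of a group came from separate animals is not stated. The deposited p-values come from a model of these samples. Any spread between samples that the model uses may be technical, so the p-values need not reflect a spread between animals.

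FGFs are secreted proteins that bind, together with heparan sulfate chains of the cell surface, to receptor tyrosine kinases encoded by the Fgfr genes. The bound receptor passes its signal through adaptor proteins to the RAS-ERK kinase cascade, and the cascade switches on, among other genes, those of the Sprouty proteins, which dampen the same signal. In skin, Fgf7 and Fgf10 are known as ligands made by dermal cells that act on epithelial cells, because the receptor form they bind best, the IIIb form of Fgfr2, is mainly epithelial, while mesenchymal cells mainly carry the IIIc forms.

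The IIIb and IIIc forms differ by the use of 1 of 2 neighbouring exons that encode the second part of the third immunoglobulin-like domain, which contacts the ligand. The table separates these forms for Fgfr2 and Fgfr3. All 22 member isoforms were paired with transcripts of the GENCODE M21 annotation (GRCm38), from which the exons were read. For Fgfr2, isoform NM_201601 holds the IIIb exon and NM_010207 the IIIc exon. The IIIb exon lies first in the direction of transcription, spans chr7:130199758-130199905 (minus strand) and has 148 bases. It is shown because it identifies the receptor form that Fgf7 and Fgf10 bind best, and is in lower case since no part of it is singled out.
Fgfr2 IIIb exon: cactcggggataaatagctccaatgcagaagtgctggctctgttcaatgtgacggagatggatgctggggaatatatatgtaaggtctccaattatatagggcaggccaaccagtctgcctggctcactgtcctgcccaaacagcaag
The Fgfr1 isoforms of the table are not separated by this choice but by an earlier exon, given with the receptor values.

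In the wound bed, transcripts of the ligand genes Fgf10 and Fgf18 were lower than in nonwounded skin, and no member isoform was called higher. Among the kinase receptor genes Fgfr1, Fgfr2 and Fgfr3, transcripts were almost entirely those of Fgfr1, at a similar level in both groups. The Sprouty genes Spry1 and Spry2 were not called. Of 13 tested member isoforms, from 9 genes, 0 were called higher and 2 lower at a Benjamini-Hochberg adjusted p under 0.05, computed over all 17775 tested isoforms from the Cuffdiff p-values of the authors' deposited table. Over all tested isoforms 12.9% were called, 5.66% higher and 7.25% lower, so that the 15.4% of member isoforms called is near the background. At an unadjusted p under 0.05 there were 4 member isoforms, but the share of all tested isoforms at that threshold was not computed. The median log2 fold change (wound bed over nonwounded, no pseudocount) was -0.23 for the tested member isoforms and -0.17 for all tested isoforms. In these bulk samples, fewer cells of a type and less RNA per cell cannot be told apart.

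**Figure D1:**
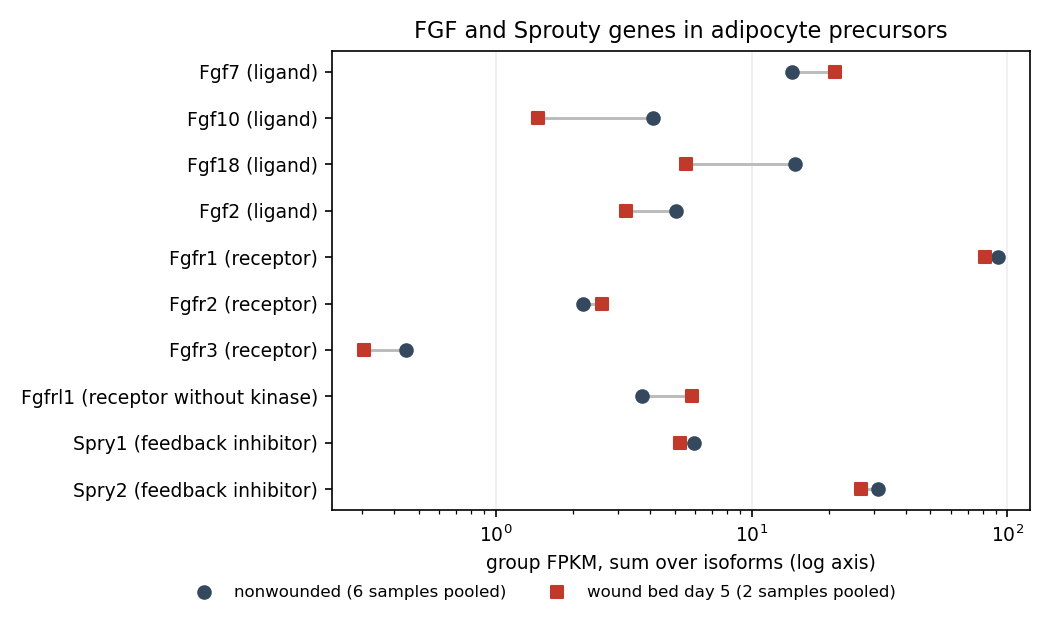
Group FPKM summed over the isoforms of each member gene (horizontal log axis), with circles for nonwounded skin and squares for the wound bed, 1 value per group. Fgfr1 lies highest in both groups (91.9 and 81.4) and Fgfr3 lowest (0.446 and 0.306), while the symbols stand farthest apart for Fgf10 and Fgf18.

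Among the ligands, Fgf10 had the lowest level in both groups. Its group FPKM was 4.10 in nonwounded skin and 1.46 in the wound bed. The isoform, on chromosome 13 from 118714699 to 118792573, fell by 1.49 on the log2 scale, a 2.82-fold difference (p = 0.00035 in the authors' deposited table, adjusted p = 0.00488). Fgf10 encodes a secreted ligand of the Fgfr2 IIIb form that is also known to promote adipogenesis. Its fold change stood at percentile 12.8 among tested isoforms that reached an FPKM of 1 in either group, where low percentiles are the largest decreases.

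Fgf18, whose product signals mainly through the IIIc forms and Fgfr3 and is known for its part in the hair cycle, stood at 14.1 in nonwounded skin and 5.52 in the wound bed for its coding isoform NM_008005. This isoform, on chromosome 11 from 33116978 to 33147400, fell by 1.36 on the log2 scale, a 2.56-fold difference (p = 0.002 in the authors' deposited table, adjusted p = 0.0203), at percentile 14.5. A noncoding isoform, NR_102395, was not tested and stood at 0.617 and 0.00117. The sum of both Fgf18 isoforms was 14.8 against 5.53, a log2 difference of -1.42.

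Fgf7, also named keratinocyte growth factor, alone of the 4 ligand genes had the higher value in the wound bed. It stood at 14.4 in nonwounded skin and 21.3 in the wound bed, a log2 fold change of 0.56, at percentile 77.0. The deposited Cuffdiff p of 0.04695 became 0.177 after adjustment, so it was not called. Fgf7 and Fgf10, which share a receptor form, therefore had values in opposite directions, of which that of Fgf10 was called; the difference between the genes was not tested. The ratio of Fgf7 to Fgf10 in FPKM was 3.50 in nonwounded skin and 14.6 in the wound bed.

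Fgf2, which encodes a ligand without a classical secretion signal that binds several receptor forms, stood at 5.06 and 3.24, a log2 fold change of -0.64 with an adjusted Cuffdiff p of 0.675. Summed over the 4 ligand genes, the FPKM was 38.3 in nonwounded skin and 31.5 in the wound bed. Within this sum the share of Fgf7 was 37.5% and 67.5%, that of Fgf18 38.5% and 17.6%, that of Fgf2 13.2% and 10.3%, and that of Fgf10 10.7% and 4.63%. Fgf18 and Fgf7 were thus close in nonwounded skin, and Fgf7 held the largest share in the wound bed.

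Reads of Fgf7 and Fgf2 may be shared with genes on the opposite strand, since the sources used here do not say whether the counting used strand. In GENCODE M21, Fgf7 lies within the span of Fam227b, whose tested isoform stood at 0.956 in nonwounded skin and 0.393 in the wound bed, far below Fgf7. The end of Fgf2 overlaps Nudt6, whose main isoform stood at 5.34 and 4.43, close to the level of Fgf2. Neither neighbour was called.

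The promoters of Fgf10 and Fgf18 are shown because these genes were the called ones. Each is the 250 bases before the transcription start in RefSeq (GRCm38.p6), on the strand of the gene, at chr13:118714449-118714698 for Fgf10 (plus strand) and chr11:33147401-33147650 for Fgf18 (minus strand). Capitals mark a match to the Sp1 motif GGGCGG on either strand.
Fgf10 promoter: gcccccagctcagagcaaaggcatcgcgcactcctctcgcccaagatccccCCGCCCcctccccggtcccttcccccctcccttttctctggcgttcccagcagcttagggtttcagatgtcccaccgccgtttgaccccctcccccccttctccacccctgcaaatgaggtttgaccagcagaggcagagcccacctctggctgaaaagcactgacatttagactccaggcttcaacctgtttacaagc
Fgf18 promoter: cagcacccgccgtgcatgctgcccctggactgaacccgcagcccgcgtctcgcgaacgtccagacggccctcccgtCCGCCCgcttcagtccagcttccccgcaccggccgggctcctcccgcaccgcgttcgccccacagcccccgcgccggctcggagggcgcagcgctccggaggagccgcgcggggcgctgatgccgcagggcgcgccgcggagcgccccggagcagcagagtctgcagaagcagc
Each of these windows holds 1 Sp1 match, which starts 199 bases before the start of Fgf10 and 174 bases before that of Fgf18. Such a match occurs in 32.7% of 32851 promoter windows of this length. Letters of a TATA box (TATAAA, in 12.4% of all windows), a cyclic AMP response element (TGACGTCA, 1.55%), an AP-1 site (TGANTCA, 6.75%) and an ETS site (CCGGAAGT, 2.88%), searched on both strands with overlaps between motifs allowed, were in neither window. Of the 9 members with a promoter in the table, the ETS letters were in that of Fgfrl1 and the other letters, apart from Sp1, in none. The Fgf18 window had a GC content of 77.2% and that of Fgf10 61.2%, against a median of 52.4% over all windows, while those of Fgf7 and Fgfr2 were at 43.6% and 44.0%. The Fgf18 window held 37 CpG dinucleotides and that of Fgf10 held 8.

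**Figure D2:**
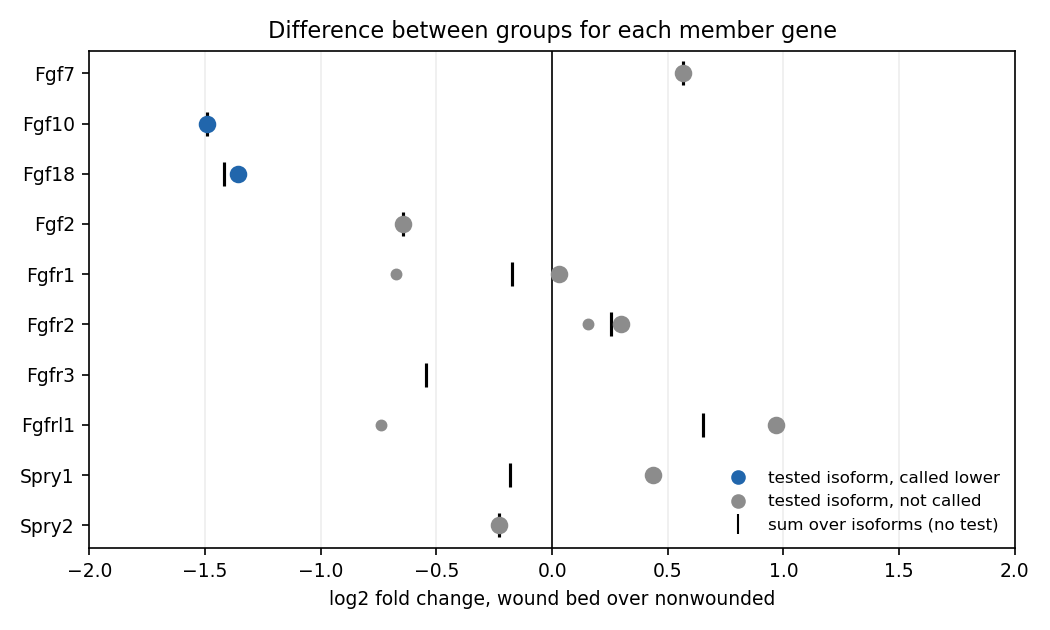
Horizontal axis, log2 ratio of wound bed to nonwounded FPKM for each tested isoform above an FPKM of 0.01 in both groups, large points for the isoform with the higher level of a gene and small points for the other, blue where called lower and grey where not called, with a black bar for the sum over isoforms. Fgf10 (-1.49) and Fgf18 (-1.36) are the blue points, and the points of Fgfr1 and of Fgfrl1 lie on both sides of 0.

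Fgfr1 was the most abundant member in both groups and carried nearly all kinase receptor transcripts. Summed over isoforms, Fgfr1 stood at 91.9 in nonwounded skin and 81.4 in the wound bed, Fgfr2 at 2.19 and 2.61, and Fgfr3 at 0.446 and 0.306. Fgfr1 thus held 97.2% of the summed FPKM of these receptor genes in nonwounded skin and 96.5% in the wound bed. Its FPKM was 42.0 times that of Fgfr2 in nonwounded skin and 31.2 times in the wound bed.

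The Fgfr1 isoforms of the table differ in a 267-base coding exon at chr8:25555508-25555774, which encodes the first immunoglobulin-like domain, a part of the receptor that is known to lower its affinity for FGFs. It is shown because it separates the 2 abundant forms: NM_001079908 holds it and NM_001079909 lacks it. The following exon has 84 bases in the former and 90 in the latter. The exon is in lower case, since no part of it is singled out.
Fgfr1 exon of the first domain: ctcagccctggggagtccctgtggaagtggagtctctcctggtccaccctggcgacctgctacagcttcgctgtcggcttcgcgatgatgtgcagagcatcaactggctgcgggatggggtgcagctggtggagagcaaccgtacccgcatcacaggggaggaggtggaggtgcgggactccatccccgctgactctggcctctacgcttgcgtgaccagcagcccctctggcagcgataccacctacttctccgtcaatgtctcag
NM_001079909, the form without the exon, stood at 60.3 in nonwounded skin and 61.6 in the wound bed, a log2 fold change of 0.03 (adjusted p = 0.944 from the authors' Cuffdiff values). NM_001079908, the form with the exon, stood at 31.5 and 19.7, a log2 fold change of -0.68 with a p of 0.016 in the authors' deposited table and an adjusted p of 0.0933, so it was not called at 0.05. The share of the form with the exon in the gene's FPKM was 34.3% in nonwounded skin and 24.3% in the wound bed. The table gives no test of this shift in share. NM_010206, which also holds the exon, was not tested and stood at 0.0277 and 0.000795.

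Fgfr2 was low and showed both forms. Its IIIc isoform NM_010207 stood at 1.502 in nonwounded skin and 1.84 in the wound bed, a log2 fold change of 0.30 (adjusted p = 0.752 from the authors' Cuffdiff values), and its IIIb isoform NM_201601 at 0.684 and 0.761, a log2 fold change of 0.15 (0.945). The IIIb isoform made up 31.3% and 29.2% of the Fgfr2 FPKM, so most Fgfr2 transcripts were assigned to the IIIc form in both groups. The 2 isoforms also differ in coding exons of 267 and 78 bases that NM_201601 lacks, so reads outside the IIIb and IIIc exons enter this assignment too. Markers of the epithelial cells that carry the IIIb form were present and did not move together: of 11 listed, 6 had the higher and 5 the lower summed FPKM in the wound bed. Krt14 stood at 3.45 in nonwounded skin and 10.9 in the wound bed and was called higher, as was Krt1, while Krt15 stood at 3.73 and 1.24 and Perp at 7.34 and 3.90, without calls. The part of such cells in the IIIb values was not tested.

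Fgfr3 was below an FPKM of 0.5 in both groups, and none of its 5 isoforms was tested. The IIIb isoform NM_001163217 stood at 0.229 in nonwounded skin and 0.000568 in the wound bed, and the IIIc isoform NM_001163216 at 0.174 and 0.305. The other Fgfr3 isoforms were at 0.0234 or less in nonwounded skin and are listed at 0 in the wound bed. Values this low give no order between the forms.

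Fgfrl1 encodes a receptor-like protein that binds FGFs but has no kinase domain. Its major isoform NM_001164259 stood at 2.67 in nonwounded skin and 5.21 in the wound bed, a log2 fold change of 0.97, the highest of the tested member isoforms, without a call (adjusted p = 0.287 from the authors' Cuffdiff values). The second isoform, NM_054071, which holds a further coding exon of 273 bases, stood at 1.05 and 0.627, a log2 fold change of -0.74 (0.783). Its share in the gene was 28.2% in nonwounded skin and 10.7% in the wound bed. Summed over both, Fgfrl1 stood at 3.72 and 5.84, a log2 difference of 0.65.

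**Figure D3:**
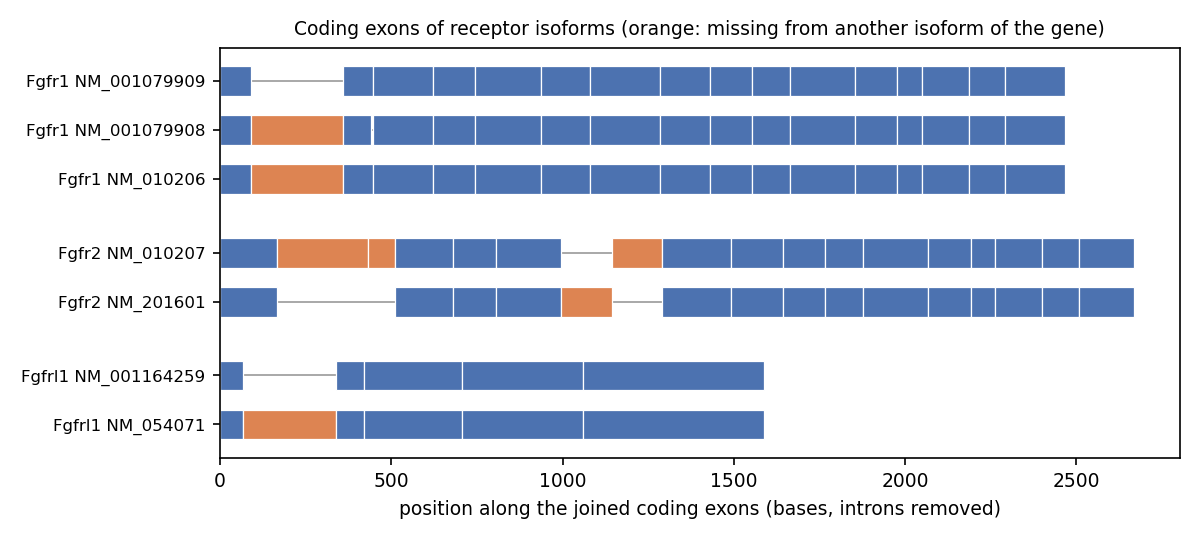
Coding exons of the Fgfr1, Fgfr2 and Fgfrl1 isoforms joined without introns (horizontal axis in bases, 1 row per isoform), with exons that another isoform of the same gene lacks in orange. The 267-base exon of Fgfr1 is missing from NM_001079909, and the Fgfr2 isoforms hold different exons, IIIb in NM_201601 and IIIc in NM_010207.

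The Sprouty genes differed little between the groups when isoforms were summed. Spry2 stood at 31.3 in nonwounded skin and 26.7 in the wound bed, a log2 fold change of -0.23 (adjusted p = 0.552 from the authors' Cuffdiff values), and was the second most abundant member in both groups. Spry1, summed over 4 isoforms, stood at 5.98 and 5.27, a log2 difference of -0.18. Spry2 was thus 5.23 times as high as Spry1 in nonwounded skin and 5.06 times in the wound bed.

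The 4 Spry1 isoforms were paired with only 2 GENCODE transcripts, which share their coding sequence and differ in the first exon, before it. NM_001305442 and NM_001305441 pair with different ones. NM_001305442 stood at 3.89 in nonwounded skin and 5.27 in the wound bed, a log2 fold change of 0.44 (adjusted p = 0.626 from the authors' Cuffdiff values). NM_001305441 stood at 2.003 in nonwounded skin and 0.000635 in the wound bed, also without a call (adjusted p = 0.510 from the authors' Cuffdiff values). The direction for Spry1 therefore depends on whether the major isoform or the sum is read, and a value this near 0 can be a failed estimate.

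**Figure D4:**
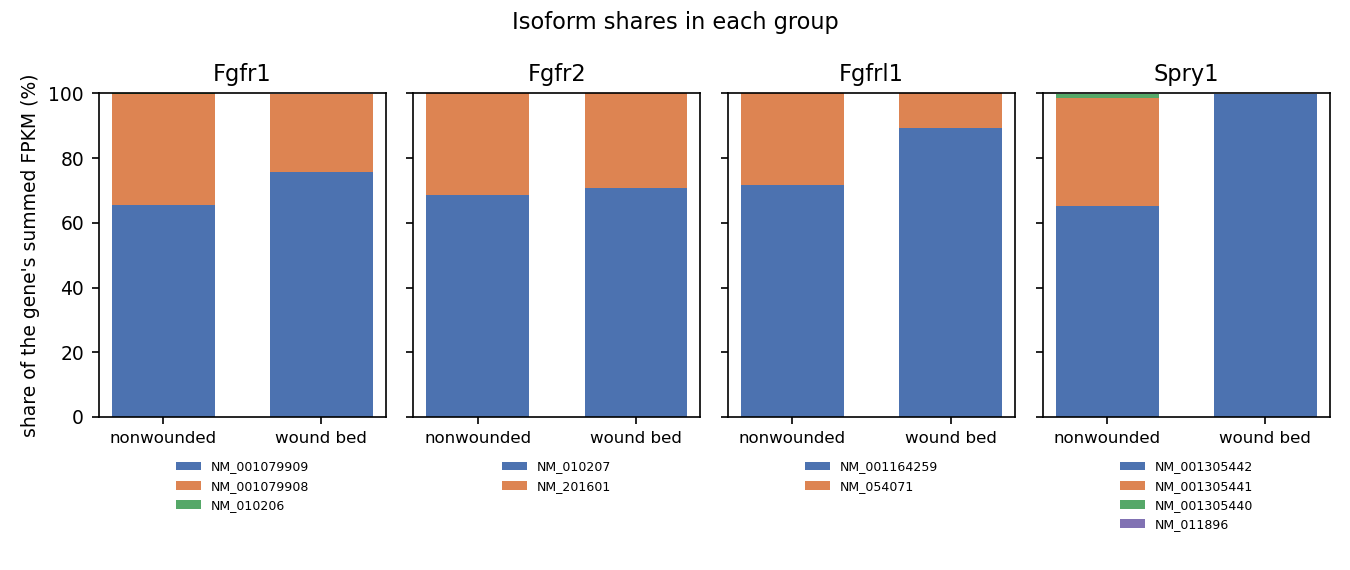
Share of each isoform in the summed FPKM of its gene (vertical axis, percent) for Fgfr1, Fgfr2, Fgfrl1 and Spry1 in nonwounded skin and the wound bed, 1 color per isoform. The share of the first listed isoform is 65.6% and 75.7% for Fgfr1, 68.7% and 70.8% for Fgfr2, 71.8% and 89.3% for Fgfrl1, and for Spry1 it is 65.1% in nonwounded skin and nearly the whole bar in the wound bed.

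In nonwounded skin the members ranked, by summed FPKM, Fgfr1, Spry2, Fgf18, Fgf7, Spry1, Fgf2, Fgf10, Fgfrl1, Fgfr2 and Fgfr3. In the wound bed the order was Fgfr1, Spry2, Fgf7, Fgfrl1, Fgf18, Spry1, Fgf2, Fgfr2, Fgf10 and Fgfr3. Without values per sample, the spread between neighbours in these orders is unknown. The share of isoforms called grew with level over the whole table, from 5.95% where the higher group had an FPKM of 1 to 3, through 10.1% at 3 to 10 and 18.1% at 10 to 30, to 27.9% at 30 to 100. Fgf2, Fgf10, Fgfrl1 and Spry1 lie in the band of 3 to 10, where the 10th percentile of the absolute log2 fold change of called isoforms was 1.01. Fgf2, Fgfrl1 and the major isoform of Spry1 were below that value and Fgf10 above it.

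The other genes of the pathway were followed in 6 lists by role, chosen with earlier results of these data known. A listed gene was counted where its major isoform, the tested isoform with the highest sum of both FPKM, reached an FPKM of 1 in either group. A gene that reached it in 1 group alone had to be higher in that group, which can shift a list's median. Over all such genes 7.39% were called higher and 8.70% lower, and the median log2 fold change was -0.13.

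Of 18 other Fgf genes, listed by name as other FGF ligands, 7 were counted, with 0 called higher and 1 lower. Not all of them encode secreted ligands, since the products of Fgf11, Fgf12, Fgf13 and Fgf14 stay inside the cell. Fgf9, which encodes a secreted ligand of IIIc forms, fell by 3.22 on the log2 scale, from 1.81 to 0.194 (adjusted p = 0.00715 from the authors' Cuffdiff values). Fgf1, a ligand of all receptor forms, stood at 0.532 in nonwounded skin and 1.996 in the wound bed without a call (0.103), and Fgf21 was not tested, at 0.0476 and 0.143. The list's median was -2.50, and -0.43 with isoform sums and a pseudocount of 1. Of the 7 counted genes, 4 reached an FPKM of 1 in nonwounded skin alone and 2 in the wound bed alone. Only Fgf14 reached it in both, at 1.07 in nonwounded skin and 1.22 in the wound bed. The median thus describes mostly genes that had to differ and is no sign of a direction.

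Among 6 counted genes of other receptors, coreceptors and FGF-binding proteins, 2 were called higher and 0 lower, with a median of -0.35. Fgfr4 and Fgfbp1 reached an FPKM of 1 in nonwounded skin alone and so had to be lower. The negative median is therefore no sign of a direction. The called genes were Ncam1 (1.75) and Cdh2 (1.68), cell adhesion genes whose products can bind FGF receptors. Fgfr4 stood at 1.35 in nonwounded skin and 0.621 in the wound bed without a call (adjusted p = 0.445 from the authors' Cuffdiff values), and Klb, the coreceptor gene for endocrine FGFs, was not tested, at 0.200 and 0.0362. The Fgfr4 level was thus below that of Fgfr2 in both groups.

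Heparan sulfate genes differed in both directions, with 9 of 25 called higher and 6 lower, and a median of 0.54. Core protein genes for cell surface chains were among the higher ones: Gpc1 rose by 4.57 on the log2 scale, from 1.24 to 29.6, Sdc1 by 3.29, Sdc3 by 1.70 and Sdc4 by 1.55. Gpc3, another glypican gene and the most abundant of the list, fell by 2.05, from 898 to 217. Sulf1 and Sulf2, whose products remove sulfate groups that FGF signalling needs, rose by 1.55 and 1.14, and Ext1, a chain polymerase gene, by 1.26. The called decreases among modifying enzymes were Hs3st1 (-1.56), Hs3st3b1 (-1.43), Glce (-1.33), Ndst2 (-1.12) and Hpse (-0.79). Hs2st1, another gene of a modifying enzyme, was called higher (0.80), from 6.41 in nonwounded skin to 11.2 in the wound bed.

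Adaptor and RAS-ERK cascade genes gave 2 calls higher and 0 lower among 30 counted, with a median of 0.18. The called genes were Stat3, from 13.3 to 37.6, and Cbl, a ubiquitin ligase gene that acts on active receptors, from 2.26 to 5.14. Frs2, the main FGF receptor adaptor gene, stood at 6.39 in nonwounded skin and 8.16 in the wound bed without a call (adjusted p = 0.400 from the authors' Cuffdiff values).

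Of the other feedback inhibitors, 2 of 14 counted genes were called higher and 0 lower, with a median of 0.74. Dusp4 and Dusp5 reached an FPKM of 1 in the wound bed alone, so they had to be higher, which raises this median. Dusp10, a phosphatase gene acting mainly on stress kinases, rose by 1.92 and Spred2, a Sprouty-related gene, by 1.15. Dusp6, which encodes the phosphatase of ERK most often used as a readout of FGF signalling, stood at 2.06 in nonwounded skin and 4.90 in the wound bed, a log2 fold change of 1.25 without a call (adjusted p = 0.111 from the authors' Cuffdiff values). Dusp5 stood at 0.283 and 10.4 (0.0939), Dusp4 at 0.389 and 1.93 (0.148), and Spred1 at 8.62 and 12.6 (0.143), none of them called. Spry4 was below an FPKM of 1 in both groups, at 0.350 and 0.850, Spry3 is listed at 0 in both, and Il17rd stood at 3.52 and 2.88 (0.518). Dusp4, Dusp5, Dusp6, Spred1 and Spry4 thus had the higher value in the wound bed and Il17rd the lower, none with a call. The sums of the members Spry1 and Spry2 were lower in the wound bed. No shared direction of the feedback genes is read from these uncalled values.

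Among factors and targets downstream of FGF and ERK, 12 of 21 counted genes were called higher and 0 lower, with a median of 2.40. Egr2, Egr3, Ets1 and Fosl1 reached an FPKM of 1 in the wound bed alone, so they had to be higher, which raises this median. Of these only Egr2 was called. The largest called changes were those of Ier3 (6.27), Egr2 (6.19), Junb (3.34), Myc (2.89) and Ets2 (2.82), immediate early genes and transcription factor genes. Egr1 rose from 208 to 771 and Fos from 413 to 1160. The Ets factor genes held to be closest to FGF signalling were low: Etv5 stood at 1.55 in nonwounded skin and 2.73 in the wound bed without a call (adjusted p = 0.245 from the authors' Cuffdiff values), and Etv1 and Etv4 were not tested, at 0.499 and 0.488 and at 0.155 and 0.295. Ccnd1, the cyclin D1 gene, stood at 5.83 and 3.34 without a call (0.103). Many of these genes respond to other signals and to tissue dissociation as well; in a list of such stress genes 7 of 12 were called higher and 0 lower. The lists overlap in 5 genes, and 4 of the 7 called stress genes (Fos, Fosb, Junb and Egr1) are among the 12 calls above, while Atf3, Zfp36 and Nr4a1 are not.

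**Figure D5:**
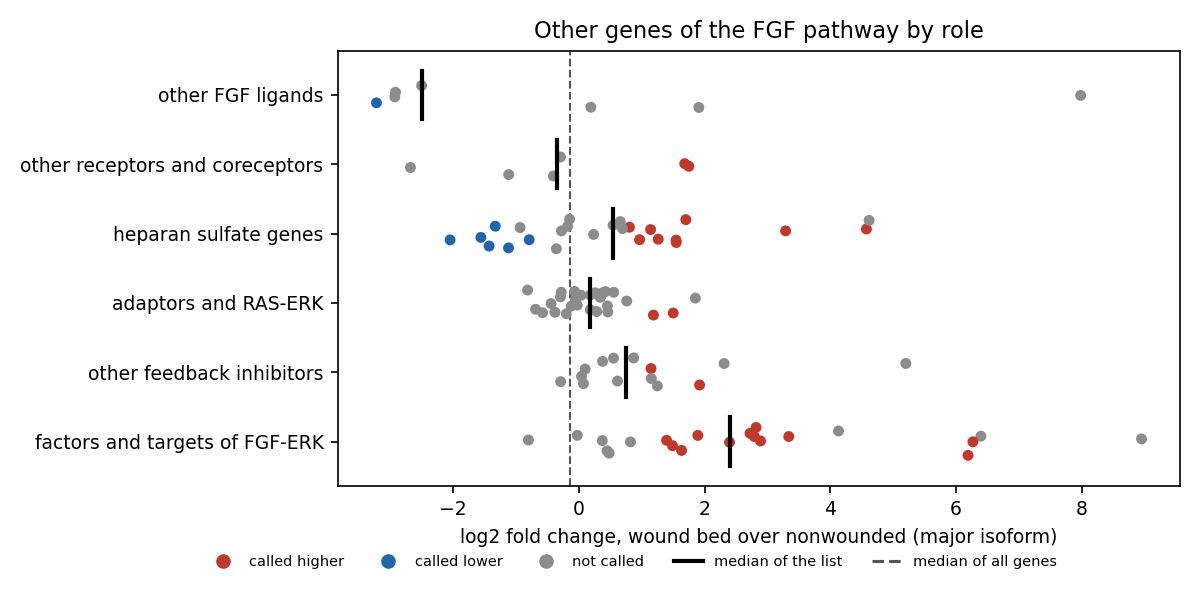
Horizontal axis, log2 ratio of wound bed to nonwounded FPKM for each counted gene in 6 role lists (rows), red where called higher, blue where called lower and grey where not called, with a black bar at the list median and a dashed line at the median of all genes (-0.13). The bars run from -2.50 for other FGF ligands, whose genes lie far to either side, to 2.40 for factors and targets of FGF and ERK.

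Markers of cell types that the sort could hold were read from the same table and counted by the same minimum, with sums over all listed genes. Of 11 precursor and mesenchymal markers, 0 were called higher and 2 lower. Their summed FPKM was 9840 in nonwounded skin and 7953 in the wound bed. The called markers were Dpp4, from 211 in nonwounded skin to 66.7 in the wound bed, and Cd24a, from 24.9 to 9.38. Their log2 fold changes of -1.66 and -1.41 were similar in size to those of Fgf10 and Fgf18. Pdgfra stood at 78.8 and 81.2, so the labelled cell type shows its markers in both groups, though not all at an equal level. Macrophage and monocyte markers were called higher in 9 of 13 cases, with sums of 358 and 1071. Called lower were 2 of 7 markers of mature adipocytes (sums of 106 and 11.3), 4 of 4 of mast cells (59.2 and 6.28), 5 of 6 of erythroid cells (3746 and 206) and 1 of 6 of skeletal muscle (88.6 and 7.57). Of 5 counted endothelial markers, 1 (Lyve1) was called lower, yet 8 of 10 listed had the higher sum in the wound bed; the list's sums of 95.0 and 27.7 were mostly those of Tek, and without it they were 11.9 and 9.36. Called higher were 2 of 7 keratinocyte markers (29.1 and 39.1) and 0 of 3 counted neutrophil markers (2.02 and 101). Summed over isoforms, Camp, a neutrophil gene, is listed at 0 in nonwounded skin, and no other listed marker in the table is at 0. The macrophage, neutrophil, mature adipocyte, skeletal muscle, mast cell and erythroid sums differ between the same groups as Fgf10, Fgf18 and the downstream genes. So do the precursor markers Dpp4 and Cd24a. The part of any of these cells in the values of Fgf10, Fgf18 and the downstream genes was not tested.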

How the data were processed

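RNA of sorted adipocyte precursors was sequenced from 8 samples, 6 nonwounded and 2 wound bed. Alignment used TopHat2 2.0.2 and the comparison Cuffdiff 2.0.2, with mm9 named as the build, per the submitters' processing notes. The authors deposited 1 FPKM per group and isoform, and a p-value per isoform for the comparison. The number of per-sample columns left unused was 0. Since depth is unknown, intervals are not given. The table's loci start or end exactly at the GRCm38.p6 RefSeq position for 8 of 10 members. Positions are those of the table (starts counted from 1). For these 8 members they follow GRCm38, in conflict with the build named in the notes.

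The deposited p-values were adjusted by Benjamini-Hochberg over all 17775 tested isoforms, which gave the same calls as the deposited significance column. The adjustment was tested on simulated data. Fold changes are wound bed over nonwounded FPKM, without a pseudocount, and none is given where a group is listed at 0. Isoform sums carry no test. All members are named; in each list the called genes with the largest changes, at most 5 per direction, and a fixed set of pathway genes are named. Ext1, Hpse, Hs2st1, Fgfbp1, Ets1, the marker and stress genes named, Fosl1, Egr3, Fgf13, Fgf16 and Fgf23 fall outside that rule. Their values were known when they were chosen. The members and lists were chosen with earlier results of these data known. Python 3.11.15, numpy 2.4.6 and pandas 2.3.3 were used. The sequences of the IIIc exons are not reported here.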

Additional observations from a re-analysis of the deposited data

How the results depend on the processing

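The alternatives were no test of the direction of the called member isoforms. Thresholds do not alter a fold change, and a pseudocount cannot reverse its sign. What they could change is whether an isoform was called. Of the 2 member isoforms called lower, 1 remained at an adjusted p under 0.01, where Fgf18 was lost, and 1 when an FPKM of 5 was required in either group, a minimum that leaves out Fgf10. At an adjusted p under 0.1, the Fgfr1 isoform NM_001079908 was added (0.0933). For Spry1 the sum over isoforms gave -0.18 against 0.44 for the major isoform, since the sum includes NM_001305441. The sum also gave a negative value for Fgfr1 (-0.18 against 0.03). Centring on the median isoform (-0.11) left the sign unchanged for the 9 member genes with a tested isoform. In the pathway lists, other FGF ligands called lower numbered 2 at an adjusted p under 0.1 and 0 with an FPKM of at least 5, and their median was -0.43 with isoform sums and a pseudocount of 1. Other receptors and coreceptors called higher numbered 1 with an FPKM of at least 5. At an adjusted p under 0.01, adaptors called higher numbered 1 and feedback inhibitors 1, and the latter numbered 4 at an adjusted p under 0.1. Over all 6 lists, calls ranged from 21 to 31 higher and from 5 to 8 lower. Leaving out a replicate was not run, because the table has no value per sample. No paired analysis was possible because the columns carry 1 value per group and no replicate numbers.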

Other observations

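Several genes of the FGF pathway differed by more than the called members without being called. Fgf23, the gene of a hormone that acts on the kidney, had an FPKM of 4.56 against 0.0180 for nonwounded skin (adjusted p = 0.481 from the authors' Cuffdiff values). Fosl1 stood at 2.54 against 0.00514 and Egr3 at 9.10 against 0.108, in the same order of groups. Fgf16 and Fgf13 stood at 0.179 and 0.358 in the wound bed against 1.36 and 2.70 (adjusted p = 0.0905 and 0.122 from the authors' Cuffdiff values). Over the whole table, 34 of 188 tested isoforms that were higher by 5 or more on the log2 scale, and reached an FPKM of 1, were called, and 8 of 483 that were lower by as much were called. In 440 of these 483 the wound bed value was below an FPKM of 0.1. These genes were chosen after their values were seen.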
